A study of Arabidopsis thaliana with 18 samples.

Results

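The type-A Arabidopsis response regulators (type-A ARR genes) are a family of 10 genes of the cytokinin pathway, ARR3, ARR4, ARR5, ARR6, ARR7, ARR8, ARR9, ARR15, ARR16 and ARR17. They were chosen by gene identifier, and all 10 are listed in both tables of the study, among 33201 entries in the table of root tips and 33560 genes in the table of sorted cells. The study comprised 18 samples in 6 groups of 3 replicates, all from roots of 5-day-old Arabidopsis thaliana seedlings. Whole root tips came from tcx2 mutants, in the knockout allele tcx2-3, and from wild type (WT). TCX2 encodes a CXC-domain protein related to a subunit of the animal DREAM cell-cycle complex. The remaining 4 groups were GFP-positive cells sorted from protoplasted roots of tcx2 plants crossed with a reporter. These were CYCD6:GFP, used to mark the cortex-endodermis initial, FEZ:FEZ-GFP, for epidermal and lateral root cap initials, TMO5:3xGFP, for the xylem, and WOX5:GFP, for the quiescent center. All 4 sorted groups therefore carried a tcx2 mutation, a WT counterpart of them was not analysed here, and the sources used here do not tell which tcx2 allele each cross carried. The cells named are those marked in WT roots, and the paper reports that each of these markers spreads into further cells in the tcx2 mutant.

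Cytokinin is sensed at membranes by histidine kinase receptors (AHK2, AHK3 and AHK4), and the signal passes as a phosphate through phosphotransfer proteins (AHPs) to response regulators in the nucleus. Type-B ARRs bind DNA and switch on transcription, and the type-A ARR genes are among their first targets. Type-A proteins carry the phosphate-accepting receiver domain but lack a DNA-binding output domain, and they dampen the pathway as negative feedback regulators. In roots, cytokinin sets the size of the meristem against auxin, and ARR7 and ARR15 are known as auxin-responsive brakes on cytokinin output in the embryonic root stem cell.

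The family falls into 5 pairs of close relatives, each member being the other's nearest match in aligned coding sequence. Identity within a pair was 83.7% for ARR3 and ARR4, 82.1% for ARR5 and ARR6, 79.0% for ARR7 and ARR15, 81.3% for ARR8 and ARR9, and 84.9% for ARR16 and ARR17. The stretch around the phosphate-accepting aspartate codon is shown for all members because it is the site that makes these proteins acceptors in the relay. Each line gives 41 coding bases, 5′ to 3′, from RefSeq (TAIR10.1), and the capitals mark the aspartate codon, found as the in-frame codon followed by tyrosine, cysteine or serine, methionine and proline codons.
ARR3: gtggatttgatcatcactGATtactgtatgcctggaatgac
ARR4: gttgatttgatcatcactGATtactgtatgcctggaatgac
ARR5: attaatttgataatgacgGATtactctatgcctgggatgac
ARR6: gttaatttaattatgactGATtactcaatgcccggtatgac
ARR7: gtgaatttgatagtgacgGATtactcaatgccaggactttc
ARR15: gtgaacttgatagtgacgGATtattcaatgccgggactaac
ARR8: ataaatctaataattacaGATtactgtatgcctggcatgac
ARR9: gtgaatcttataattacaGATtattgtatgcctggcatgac
ARR16: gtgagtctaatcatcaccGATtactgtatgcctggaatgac
ARR17: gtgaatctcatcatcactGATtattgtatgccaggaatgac
Within this stretch ARR3 and ARR4 shared 40 of the 41 bases, ARR8 and ARR9 shared 37, ARR7 and ARR15 as well as ARR16 and ARR17 shared 36, and ARR5 and ARR6 shared 34. The longest run of bases common to a pair in coding sequence was 41 bases, in ARR3 with ARR4 and in ARR8 with ARR9. Every 100-base window of every member's annotated exons occurred once in the genome, so that reads of that length from one member have no perfect match in another.

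In TAIR10.1, ARR3 (AT1G59940) lies at chr1:22065617-22067233, ARR4 (AT1G10470) at chr1:3441988-3444360, ARR7 (AT1G19050) at chr1:6577833-6579314 and ARR15 (AT1G74890) at chr1:28131447-28133025, all on the minus strand. ARR8 (AT2G41310) lies at chr2:17221840-17224880 and ARR16 (AT2G40670) at chr2:16969673-16972113, both on the plus strand. ARR9 (AT3G57040) at chr3:21109059-21111567 and ARR17 (AT3G56380) at chr3:20905264-20906397 are on the plus strand, whereas ARR5 (AT3G48100) at chr3:17758427-17760950 and ARR6 (AT5G62920) at chr5:25252007-25254318 are on the minus strand. The annotation overlaps 3 members with a gene on the opposite strand: ARR6 with the protein-coding AT5G62910 over 348 bases, ARR8 with the lncRNA AT2G09250 over 299 bases, and ARR9 with the lncRNA AT3G08825 over 231 bases. The labels name kits that keep strand and the study's methods name kits without saying so, and whether the authors counted by strand is not given in the sources used here, so that the values of these 3 members are uncertain to that extent.

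The values are FPKM, fragment numbers corrected for the length of the transcript and the yield of the library, and the depth behind them is unknown. In the sorted libraries ribosomal RNA took 78.1% to 85.9% of the summed FPKM, and 14878 to 22170 genes were above 0. The labels of the sorted cells were checked against the genes behind the reporters. All 3 CYCD6:GFP libraries listed CYCD6;1 at 0. It was above 0 only in 1 FEZ:FEZ-GFP library, at 0.315 FPKM, and in 2 TMO5:3xGFP libraries, at 0.125 and 0.136 FPKM. WOX5 was at 0 in every WOX5:GFP library and above 0 only among TMO5:3xGFP libraries, at 1.49, 0.997 and 0 FPKM. TMO5 went the other way, with 0, 0.206 and 0 FPKM in TMO5:3xGFP cells and 3.75, 0.391 and 0.782 FPKM in WOX5:GFP cells. FEZ had 2.90, 0.949 and 0.347 FPKM in FEZ:FEZ-GFP cells, but also 0.702, 0.917 and 0.409 FPKM in TMO5:3xGFP cells, each above the lowest FEZ:FEZ-GFP library. The reporters' own genes thus go against the labels of TMO5:3xGFP and WOX5:GFP cells, the populations with the lowest and highest mean summed type-A level, and how the libraries came to differ from their labels was not tested. The populations are therefore called by the reporter on their label and not by a cell type, and each direction given for TMO5:3xGFP or WOX5:GFP cells rests on that label. In root tips TCX2 itself was 0.303 FPKM in tcx2 and 1.29 FPKM in WT, with intervals that did not overlap.

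The first comparison asks whether the loss of TCX2 changes the family in whole root tips. Of the 10 members, 6 were expressed at 12.8 FPKM or more in both genotypes and 4 stayed below 1 FPKM in both, and no member had separate intervals in tcx2 and WT. The table gives 1 value per genotype with the bounds of an interval made by the authors, so there is no replicate check here, and a gene was called where at least 1 genotype reached 1 FPKM and the intervals were apart.

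ARR8 was the highest member in tcx2, at 52.7 FPKM (interval 37.5 to 65.1), against 49.2 FPKM (34.3 to 64.1) in WT. Its relative ARR9 was at 32.0 FPKM (21.9 to 39.1) in tcx2 and 32.3 FPKM (21.4 to 37.8) in WT. ARR4, known to bind the red-light receptor phytochrome B, was at 48.2 FPKM (34.8 to 61.4) in tcx2 and 50.9 FPKM (35.9 to 64.1) in WT. For these 3 genes the value of each genotype lay well inside the interval of the other. ARR3, known with ARR4 for a role in the circadian period, was at 39.9 FPKM (28.7 to 50.9) in tcx2 and 30.4 FPKM (21.4 to 38.8) in WT, the widest gap among the 6, yet the intervals overlapped. ARR6 was at 16.1 FPKM (9.83 to 20.9) in tcx2 and 16.3 FPKM (9.71 to 21.0) in WT. ARR5, widely used as a reporter of cytokinin response, was at 12.8 FPKM (8.63 to 16.7) in tcx2 and 13.3 FPKM (8.71 to 17.3) in WT. ARR5 and ARR6 thus stood close together, and below the other 4 expressed members in both genotypes. In tcx2 the descending order was ARR8, ARR4, ARR3, ARR9, ARR6 and ARR5, and neighbours in this order had overlapping intervals except ARR9 and ARR6.

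**Figure D1:**
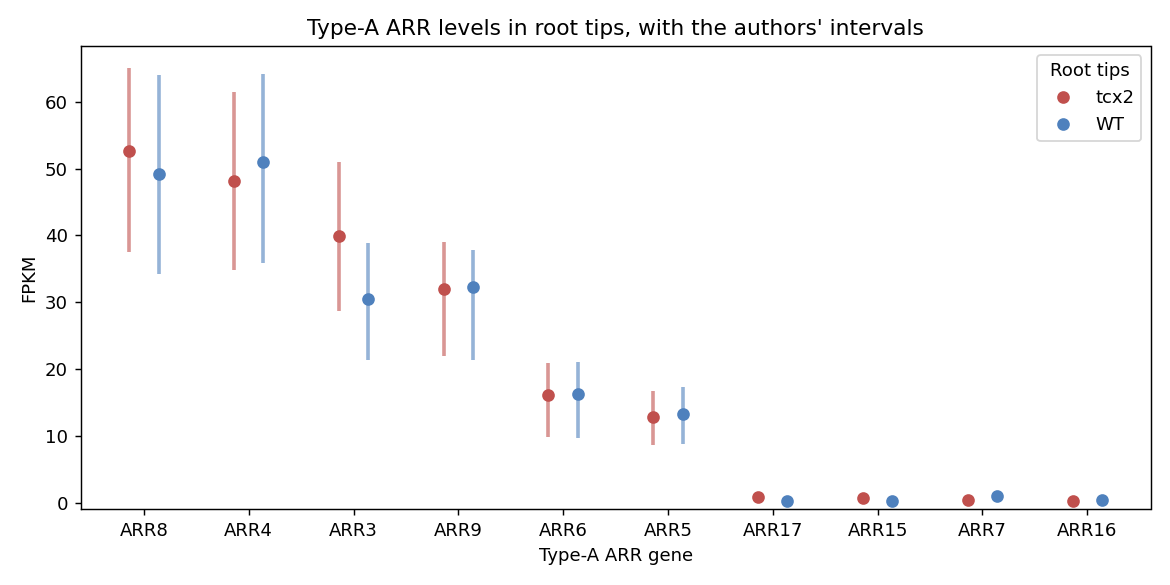
FPKM (y axis) of the 10 type-A ARR genes in tcx2 and WT root tips, with dots for the authors' values and lines for their intervals. The 6 expressed genes lie between 12.8 and 52.7 FPKM, 4 genes lie below 1 FPKM, and the intervals of the genotypes overlap for every gene.

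On the log2(FPKM + 1) scale the tcx2 minus WT difference was 0.38 for ARR3 and 0.10 for ARR8, and it was -0.01 for ARR9, -0.02 for ARR6, -0.05 for ARR5 and -0.08 for ARR4. The median over these 6 members was -0.02, beside 0.00 over the 17465 entries tested, of which the middle 95% lay between -0.50 and 0.38. Intervals were apart for 0 of the 6 members, against a background of 0.361% of entries (63 of 17465, 7 higher and 56 lower in tcx2).

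The other 4 members were low in both genotypes. ARR7 was at 0.458 FPKM in tcx2 and 0.952 FPKM in WT, and ARR15, its relative, was at 0.635 FPKM in tcx2 and 0.264 FPKM in WT. ARR16 was at 0.199 FPKM in tcx2 and 0.369 FPKM in WT, and ARR17 at 0.843 FPKM in tcx2 and 0.166 FPKM in WT. These 2 pairs showed no common direction, all 4 genes had overlapping intervals, and the lower bound was 0 in at least 1 genotype for each. They made up little of the family's total, since the 6 expressed members held 99.0% of the summed type-A FPKM in tcx2 and 99.1% in WT.

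The second comparison concerns the 4 sorted populations of tcx2 roots. Here 5 members, ARR3, ARR4, ARR5, ARR8 and ARR9, reached 1 FPKM in at least 3 of the 12 libraries and were tested, and the other 5 did not. No member passed the adjusted test. ARR3 had higher values in CYCD6:GFP and WOX5:GFP cells than in FEZ:FEZ-GFP and TMO5:3xGFP cells, without overlap. That split was picked after the values were seen, and the share of all genes with such a split was not computed. The study's methods call the 3 libraries of each sorted population biological replicates.

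ARR3 was at 3.78, 4.88 and 2.61 FPKM in CYCD6:GFP cells and at 2.20, 4.57 and 3.09 FPKM in WOX5:GFP cells. FEZ:FEZ-GFP cells had 1.31, 0 and 1.45 FPKM of ARR3, and TMO5:3xGFP cells 1.76, 0.230 and 1.74 FPKM. All 6 values of the first 2 populations were above all 6 of the others, while CYCD6:GFP overlapped WOX5:GFP and TMO5:3xGFP overlapped FEZ:FEZ-GFP. The limma F-test over the 4 populations gave a Benjamini-Hochberg adjusted p of 0.139 over the 9979 genes tested. Relative to the mean of the other 3 populations, the limma difference in log2(FPKM + 1) was 0.90 ± 0.38 (SE) in CYCD6:GFP cells (adjusted p = 0.381) and -0.95 ± 0.38 in FEZ:FEZ-GFP cells (adjusted p = 0.524). It was 0.69 ± 0.38 in WOX5:GFP cells (limma adjusted p = 0.510) and -0.63 ± 0.38 in TMO5:3xGFP cells (adjusted p = 0.365). The largest pairwise difference of ARR3 was 1.39 ± 0.46 between CYCD6:GFP and FEZ:FEZ-GFP cells, with a 95% interval of 0.43 to 2.35 and a limma adjusted p of 0.258. That contrast compares neither TMO5:3xGFP nor WOX5:GFP cells, although the CYCD6:GFP label was not borne out by CYCD6;1 either.

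ARR4, the relative of ARR3, was ordered otherwise. It was lowest on average in TMO5:3xGFP cells, at 1.22, 0.894 and 0.449 FPKM, against 2.31, 1.29 and 1.29 FPKM in WOX5:GFP cells. CYCD6:GFP cells had 1.40, 0.337 and 1.42 FPKM and FEZ:FEZ-GFP cells 3.65, 0.652 and 1.69 FPKM. Populations next to each other in mean level overlapped, and only TMO5:3xGFP lay wholly below WOX5:GFP (limma difference -0.51 ± 0.43, adjusted p = 0.554).

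ARR5 had its highest values, 3.18 and 3.02 FPKM, in FEZ:FEZ-GFP cells, where the remaining library was listed at 0. It was at 1.89, 0.313 and 0.879 FPKM in WOX5:GFP cells, at 1.31, 0.448 and 0.694 FPKM in TMO5:3xGFP cells and at 1.40, 0.213 and 0.143 FPKM in CYCD6:GFP cells. The spread within FEZ:FEZ-GFP cells was as wide as that over all 12 libraries, and no pair of populations was apart.

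ARR8 was at 0.566, 2.09 and 0.539 FPKM in TMO5:3xGFP cells. It was at 2.40, 1.12 and 3.49 FPKM in CYCD6:GFP cells, at 1.78, 3.05 and 1.57 FPKM in FEZ:FEZ-GFP cells and at 2.62, 1.67 and 3.55 FPKM in WOX5:GFP cells. The lowest 2 values of the 12 were thus in TMO5:3xGFP cells, while the remaining library of that population lay among the others. Its limma difference in TMO5:3xGFP cells was -0.74 ± 0.36, with a 95% interval of -1.48 to 0.00 and an adjusted p of 0.246.

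ARR9 was at 0.228, 0.277 and 2.33 FPKM in CYCD6:GFP cells. The other populations had 3.87, 2.24 and 1.79 FPKM (FEZ:FEZ-GFP), 1.26, 2.11 and 0.206 FPKM (TMO5:3xGFP) and 2.73, 1.40 and 3.89 FPKM (WOX5:GFP). The CYCD6:GFP values were low in 2 libraries and near the upper populations in the other, and all 4 populations overlapped. The limma difference in CYCD6:GFP cells was -0.76 ± 0.39 (adjusted p = 0.496).

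**Figure D2:**
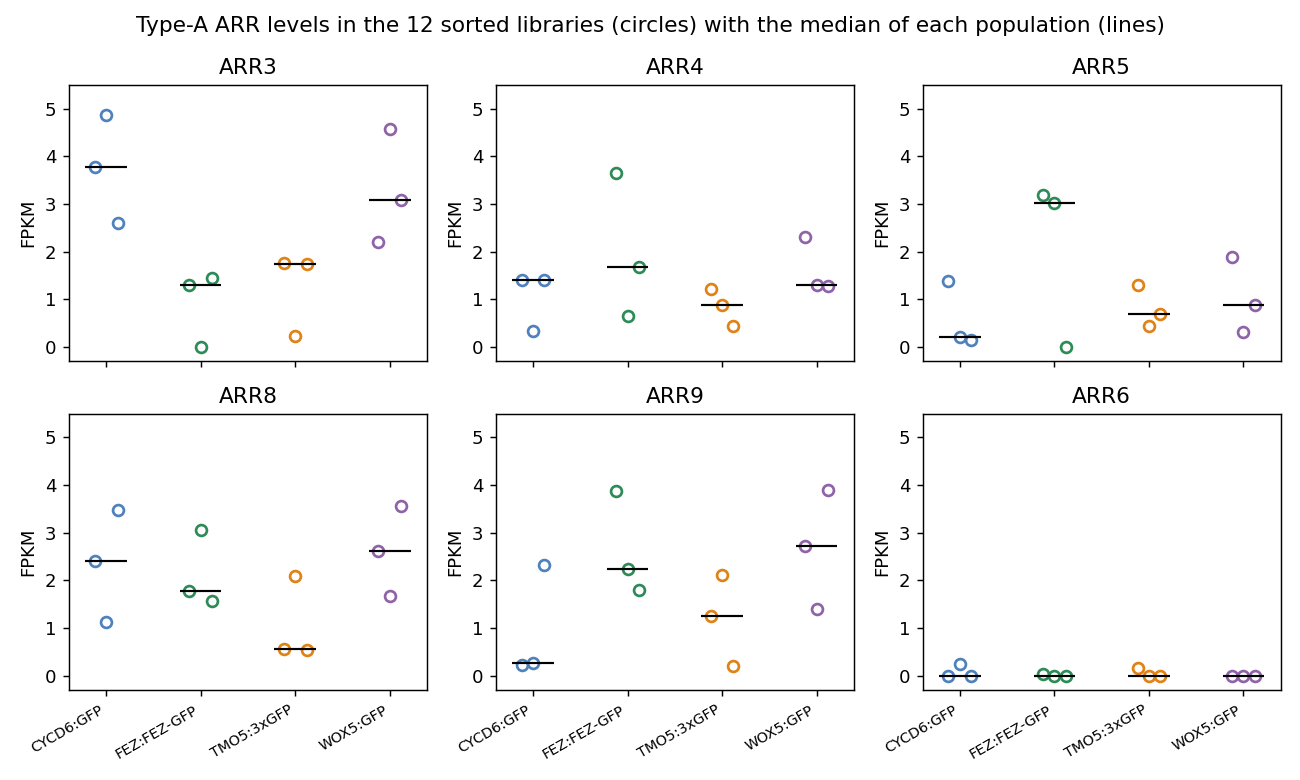
FPKM (y axis) of 6 type-A ARR genes in the 12 sorted libraries, with 1 circle per library and a line at the median of each population. ARR3 in CYCD6:GFP and WOX5:GFP cells, from 2.20 to 4.88 FPKM, lies above ARR3 in FEZ:FEZ-GFP and TMO5:3xGFP cells, from 0 to 1.76 FPKM, and ARR6 stays at or below 0.249 FPKM.

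In the limma F-test 0 of the 5 tested members were called, against 4.28% of the 9979 genes (427), and 1 of the 5, ARR3, had an unadjusted p under 0.05, as did 18.1% of all genes. Contrasts of each population with the other 3 required an adjusted p under 0.05 and a fold change over 2. They called 0 of 5 members in CYCD6:GFP cells (0.2% of all genes in either direction), FEZ:FEZ-GFP cells (0.241%), TMO5:3xGFP cells (5.52%) and WOX5:GFP cells (0.802%). Over these 20 member contrasts 2 had an unadjusted p under 0.05, both of ARR3, beside 12.5% of the contrasts of all genes. The 6 pairs of populations gave 0 calls in 30 member contrasts, of which 6 had an unadjusted p under 0.05, beside 12.3% over all genes. For the adjusted calls limma had 0.541% of genes for CYCD6:GFP against FEZ:FEZ-GFP, 0.15% for CYCD6:GFP against WOX5:GFP, 0.631% for FEZ:FEZ-GFP against TMO5:3xGFP, 0.832% for FEZ:FEZ-GFP against WOX5:GFP, 4.11% for TMO5:3xGFP against CYCD6:GFP and 5.68% for TMO5:3xGFP against WOX5:GFP. When limma weighted each library by its own variance, ARR3, ARR5, ARR8 and ARR9 passed the F-test, 4 of 5 members, with 39.9% of all genes passing it. With these weights ARR3 (higher) and ARR9 (lower) were called in CYCD6:GFP cells, 2 of 5 members beside 9.19% of genes, and ARR3 (lower) in FEZ:FEZ-GFP cells, 1 of 5 beside 2.3%. The pairs then gave 7 calls in 30 member contrasts, beside 10.7% over all genes and pairs.

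Separation of the values without overlap was not rare across genes. ARR3 was the 1 member of 5 wholly higher in CYCD6:GFP than in FEZ:FEZ-GFP cells, which 4.21% of tested genes were. It was likewise the 1 member wholly lower in FEZ:FEZ-GFP than in WOX5:GFP cells (8.5% of genes) and in TMO5:3xGFP than in CYCD6:GFP cells (6.96%). ARR3 and ARR4 were wholly lower in TMO5:3xGFP than in WOX5:GFP cells, 2 of 5 members, with 11.2% of genes.

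**Figure D3:**
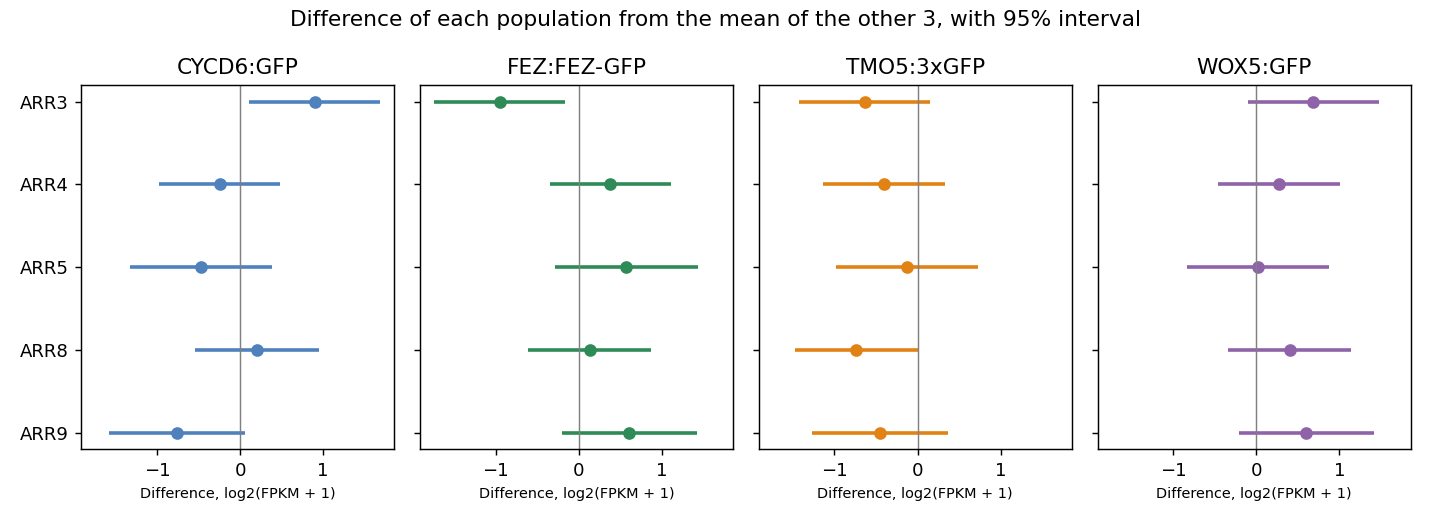
Difference in log2(FPKM + 1) of each population from the mean of the other 3 (x axis) for the 5 tested type-A ARR genes, with dots for limma estimates and lines for 95% intervals. ARR3 lies at 0.90 in CYCD6:GFP and -0.95 in FEZ:FEZ-GFP cells, and all 5 genes have estimates below 0 in TMO5:3xGFP cells and above 0 in WOX5:GFP cells.

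Across the 5 tested members the median difference in TMO5:3xGFP cells was -0.45, with all 5 estimates negative, beside a median of 0.14 over all tested genes. In WOX5:GFP cells it was 0.40, with all 5 positive, beside -0.01. In FEZ:FEZ-GFP cells it was 0.38, with 4 positive, beside -0.03, and in CYCD6:GFP cells it was -0.25, with 2 positive, beside -0.10. The populations share their libraries in these contrasts, so that a low population lifts the others.

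The FPKM of all 10 members summed to 6.27, 5.77 and 4.44 in TMO5:3xGFP cells. The sums were 9.20, 7.07 and 9.98 in CYCD6:GFP cells, 13.8, 8.96 and 6.49 in FEZ:FEZ-GFP cells and 11.8, 9.25 and 12.7 in WOX5:GFP cells. The 3 TMO5:3xGFP libraries had the lowest sums of the 12, by a narrow margin over 1 FEZ:FEZ-GFP library. These libraries also listed the most genes above 0, at 22170, 20751 and 18981, against 14878 to 18043 in the others. The part of this difference in the sums was not tested. Per 100000 FPKM of nuclear genes without ribosomal RNA, the sums ran from 7.23 to 8.90 in TMO5:3xGFP cells, against 11.2 to 22.8 in CYCD6:GFP, 10.7 to 16.0 in FEZ:FEZ-GFP and 14.7 to 21.8 in WOX5:GFP cells. The root cap markers SMB, BRN1 and BRN2 summed to 5.48 to 11.2 FPKM in TMO5:3xGFP cells, where the type-A sums were lowest. They summed to 0 to 1.42 FPKM in CYCD6:GFP, 2.18 to 8.17 FPKM in FEZ:FEZ-GFP and 0 to 0.216 FPKM in WOX5:GFP cells. All 3 were listed at 0 in 2 CYCD6:GFP and 2 WOX5:GFP libraries. These sums were thus 2.18 FPKM or more in the 6 libraries where ARR3 was low and 1.42 FPKM or less in the 6 where it was high. Of the markers taken singly, only SMB was split in this way. BRN1 reached 1.42 FPKM in a CYCD6:GFP library and was at 0.267 FPKM in a FEZ:FEZ-GFP library, and BRN2 was above 0 in only 1 FEZ:FEZ-GFP library. The libraries were grouped by ARR3 itself, and the share of genes split likewise was not computed. The xylem markers VND7, VND6, ACL5 and XCP1 summed to 0 to 0.482 FPKM in TMO5:3xGFP cells, against 0 to 0.198 FPKM in CYCD6:GFP, 0 to 1.81 FPKM in FEZ:FEZ-GFP and 2.20 to 11.9 FPKM in WOX5:GFP cells. The endodermis markers SCR, CASP1 and MYB36 summed to 0.794 to 2.21 FPKM in TMO5:3xGFP and 0.413 to 1.88 FPKM in CYCD6:GFP cells. They summed to 0.0474 to 0.503 FPKM in FEZ:FEZ-GFP and 0 to 0.925 FPKM in WOX5:GFP cells. Sums of the root hair markers COBL9, EXPA7 and RHD6 overlapped among all populations, between 2.20 and 13.8 FPKM. The part of cell composition in the levels of the type-A ARR genes was not tested, and fewer cells of a type and less RNA per cell cannot be told apart in such samples.

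ARR6 stood apart from the other expressed members between the tables. Its root tip level was 1.26 times that of ARR5 in tcx2 and 1.22 times in WT, yet in sorted cells it was listed above 0 in 3 of 12 libraries, at 0.249 FPKM in CYCD6:GFP, 0.0388 FPKM in FEZ:FEZ-GFP and 0.159 FPKM in TMO5:3xGFP cells, and at 0 in all WOX5:GFP libraries. ARR5 was above 0 in 11 of 12. The tables were normalized separately and the libraries made with different kits, so the levels are set side by side without a test. Among the 9396 genes with at least 10 FPKM in tcx2 root tips, 76.4% reached 1 FPKM in at least 3 sorted libraries, 3.04% (286) were above 0 in at most 3 libraries, and 1.19% (112) had a mean over the sorted libraries no higher than the 0.0373 FPKM of ARR6. The cause of the gap was not tested.

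**Figure D4:**
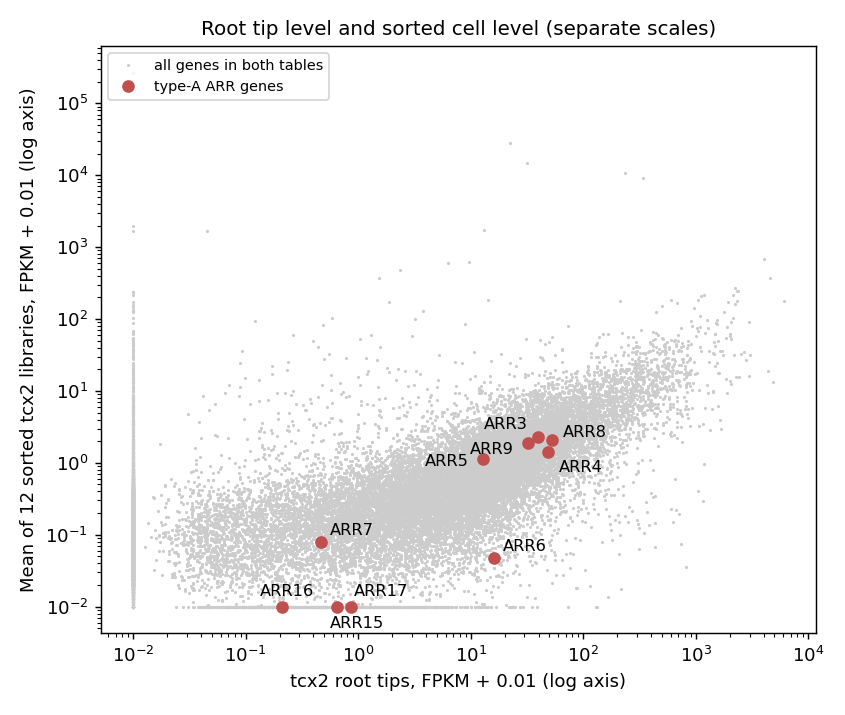
Mean FPKM over the 12 sorted libraries (y axis) against FPKM in tcx2 root tips (x axis), both on log axes after adding 0.01, for genes in both tables (gray) and the type-A ARR genes (red). ARR3, ARR4, ARR5, ARR8 and ARR9 lie within the main cloud, and ARR6, at 16.1 FPKM in root tips, lies at its lower edge with 0.0373 FPKM.

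The members that were low in root tips were also nearly absent from the sorted table. ARR7 was listed above 0 in 1 library, at 0.815 FPKM in TMO5:3xGFP cells, and ARR15, ARR16 and ARR17 were listed at 0 in all 12.

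The regions before ARR5 and ARR6 are shown because these close relatives had like levels in root tips and unlike detection in sorted cells. The 250 bases before the annotated start are given 5′ to 3′ on the gene's strand (TAIR10.1, minus strand for both), at chr3:17760951-17761200 for ARR5 and chr5:25254319-25254568 for ARR6. Capitals mark AGATT, a form of the core sequence bound by type-B ARRs, or AATCT, the same on the other strand, which cannot overlap each other. Other forms of the core were not counted.
ARR5: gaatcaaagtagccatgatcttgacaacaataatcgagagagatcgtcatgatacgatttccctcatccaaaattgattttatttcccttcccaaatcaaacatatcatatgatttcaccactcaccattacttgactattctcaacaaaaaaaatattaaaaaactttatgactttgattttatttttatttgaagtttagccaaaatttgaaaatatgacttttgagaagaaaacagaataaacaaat
ARR6: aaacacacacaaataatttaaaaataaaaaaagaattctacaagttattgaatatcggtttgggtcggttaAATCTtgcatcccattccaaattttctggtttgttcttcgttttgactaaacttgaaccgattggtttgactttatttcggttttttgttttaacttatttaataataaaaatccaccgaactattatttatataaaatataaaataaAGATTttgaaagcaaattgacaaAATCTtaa
The ARR6 window held AGATT or AATCT 3 times and the ARR5 window held neither. The ARR5 window did hold AGATC, and elsewhere GATCT, the same on the other strand, which were not counted. The difference between the 2 windows thus holds for the counted form only. ARR7 had 3 matches, ARR9 and ARR16 had 2, ARR3, ARR8 and ARR15 had 1, and ARR4 and ARR17 had 0, so that 7 of 10 members had at least 1, beside 63.7% of the windows of the same length before 27444 genes. Within 1000 bases every member had from 4 to 7 matches, with a mean of 4.28 over all genes. A match is a description of the letters and not a binding site.

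Other genes of the cytokinin pathway were followed as a list of 52 genes, the receptors, phosphotransfer proteins, type-B ARRs, cytokinin response factors (CRFs), synthesis and degradation enzymes. In root tips 26 of them were tested and 0 had intervals apart, with log2 differences from -0.74 to 0.54 and a median of 0.05. In sorted cells 16 were tested and limma called 0 in the F-test and 0 in any contrast, where 4 of the 16 had an unadjusted p under 0.05 in the F-test, beside the 18.1% of all genes. These 4 were AHK4, CRF2, CRF3 and LOG7, of which the last 3 were picked after their values were seen.

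AHK4, the receptor most associated with the root vasculature and meristem, was at 3.60, 5.08 and 5.73 FPKM in WOX5:GFP cells, above all other 9 libraries, which ran from 1.15 to 2.97 FPKM. Its limma difference in WOX5:GFP cells was 0.94 ± 0.33 (adjusted p = 0.222), with 1.41% of tested genes wholly highest in WOX5:GFP cells. LOG7, an enzyme that releases active cytokinin, had its lowest 3 values in TMO5:3xGFP cells, 1.53, 2.21 and 2.52 FPKM. Its limma difference there was -1.37 ± 0.41 (adjusted p = 0.0506), in a contrast that called 5.52% of all genes. The share of genes wholly lowest in TMO5:3xGFP cells was not computed. CRF3, a transcription factor of the cytokinin response, had 8.32, 5.32 and 6.05 FPKM in FEZ:FEZ-GFP cells, against 0.381 to 5.79 FPKM in the other 9 libraries (95% interval of the limma difference 0.60 to 2.40, adjusted p = 0.206). CRF2 ran from 0.709 to 1.95 FPKM in FEZ:FEZ-GFP and TMO5:3xGFP cells and from 0.0871 to 0.557 FPKM in CYCD6:GFP and WOX5:GFP cells. That is the reverse of the ARR3 split, and the share of genes split so was not computed. In WOX5:GFP cells its limma difference was -0.70 ± 0.29 (adjusted p = 0.333). In root tips CRF2 was at 4.30 FPKM in tcx2 and 6.92 FPKM in WT, with overlapping intervals. AHP6, a pseudo-phosphotransfer protein that inhibits the relay in the root vasculature, was at 0.178 FPKM (interval 0 to 0.756) in tcx2 and 0.526 FPKM (0 to 1.29) in WT root tips. Both values were too low for it to be tested, and it was listed above 0 in 2 of 12 sorted libraries.

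The members did not share 1 pattern over the 12 sorted libraries. Pearson's r of log2(FPKM + 1) between tested members ran from -0.40, for ARR3 with ARR5, to 0.63, for ARR4 with ARR9, and it was 0.02 for the relatives ARR3 and ARR4 and 0.59 for the relatives ARR8 and ARR9. All genes share the depth and composition of these libraries, so these values are descriptive. Among all tested genes, those most like ARR3 were RLP51 (r = 0.82), HIPP25 (0.82) and AT5G24100 (0.80), those most like ARR4 were AT5G41140 (0.87), SQS1 (0.87) and AT5G25520 (0.80), and those most like ARR5 were AT4G38100 (0.89), ZCF37 (0.88) and AT4G04200 (0.85). For ARR8 they were TWD1 (0.91), OEP16-3 (0.88) and AT1G68140 (0.88), and for ARR9 SMU1 (0.94), FTSH3 (0.91) and LKP2 (0.91). No member was among the 3 genes most like another member. With 9979 genes tested this is the usual outcome, so it carries no weight.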

How the data were processed

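Root tip RNA and RNA of sorted cells were sequenced as single-end reads. The sources differ on the kits, since the labels give NEBNext Ultra II Directional for root tips and SMARTer Stranded for sorted cells, whereas the methods give NEBNext Ultra II, and SMART-Seq v4 for the marker line protocol that the sorted cells refer to. The authors aligned reads to TAIR10 with Bowtie (Bowtie2 for sorted cells per the labels) and deposited FPKM from Cufflinks, with 1 value and an interval per genotype for root tips, the level of which is not stated, and 1 value per library for sorted cells. The authors also named edgeR and Rsubread, without versions. Neither table holds counts, and depth is unknown. Every value column, the interval bounds included, was mapped to a sample or group.

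Sorted values were analyzed as log2(FPKM + 1) with limma 3.58.1 in R 4.3.3, with an intensity trend, for the 9979 genes that reached 1 FPKM in 3 or more libraries. This scale understates changes of low genes. All tests were two-sided and Benjamini-Hochberg adjusted over these genes. The fit was tested on simulated data. Members, gene lists and named genes (every member, called pathway genes, AHK4, AHP6 and the 3 genes most like each tested member) were chosen with earlier results of these data known. Alternatives were pseudocounts of 0.1 and 5, no filter, median centring, rescaling to nuclear genes without ribosomal RNA, array weights, a replicate block and leaving out each library, and for root tips a fold change over 1.5. Sequences came from RefSeq TAIR10.1 and were handled with Biopython 1.88. All of 32155 root tip positions compared overlapped the gene of the same name there.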

Additional observations from a re-analysis of the deposited data

How the results depend on the processing

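The F-test, the contrasts of each population and the pairs of populations gave 0 type-A ARR calls under both pseudocounts, without the filter, with median centring, with rescaling to nuclear genes, with the replicate block and without each of the 12 libraries. The fit without the filter tested 7 members, and the others tested 5. The shares of all genes called in these fits are not given here. In the main fit those shares ran from 0.15% to 5.68%, so 0 calls among so few members say little. Array weights in limma were the exception to the 0 calls. With them the F-test called 4 of 5 members (adjusted p = 0.00119 for ARR3, 0.00489 for ARR9, 0.0224 for ARR5 and 0.0306 for ARR8), CYCD6:GFP cells had 2 calls (ARR3 higher, ARR9 lower), FEZ:FEZ-GFP cells had 1 (ARR3 lower) and the pairs had 7, while TMO5:3xGFP and WOX5:GFP cells had 0. The same weights raised the F-test calls over all genes to 3985, against 427 without them, and the cause was not tested. Without array weights the lowest adjusted p of ARR3 over 18 alternatives was 0.103. The ARR3 difference in CYCD6:GFP cells ran from 0.38 to 1.56 and that in FEZ:FEZ-GFP cells from -1.95 to -0.38 over 19 alternatives, without a change of sign. In root tips 0 of the 6 tested members changed over 1.5-fold at pseudocounts of 1, 0.1 or 5. Of the 17465 entries, 457, 848 and 119 did. Without the filter 0 of 10 members had intervals apart. The 4 members below 1 FPKM were left out of the fold count. Of these, ARR17 exceeded that fold at a pseudocount of 1 (log2 difference 0.66). At 0.1 all 4 did, with -0.91 for ARR7, 1.02 for ARR15, -0.65 for ARR16 and 1.83 for ARR17. Same-numbered libraries showed no common deviation (correlations from -0.19 to 0.17 over 18 pairs, 2 of them over 0.1). These values show no pairing by number but cannot exclude one, and the replicate block left the type-A ARR calls at 0. FPKM without counts gives no detection limit, and low members such as ARR7 cannot be compared.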
